A study of Oryza sativa with 23 samples.

Results

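The PYR/PYL/RCAR proteins are the soluble receptors of the plant hormone abscisic acid (ABA). In the textbook scheme a receptor that has bound ABA holds a clade A protein phosphatase 2C (PP2C) inactive, which leaves SnRK2 kinases free to phosphorylate bZIP transcription factors and other targets, and in roots this pathway is part of the response to drying soil. The receptors described here were the 8 rice loci LOC_Os10g42280, LOC_Os06g36670, LOC_Os02g13330, LOC_Os01g61210, LOC_Os05g39580, LOC_Os03g18600, LOC_Os02g15640 and LOC_Os05g12260, chosen as receptor genes and not by their measured values. Earlier results of these data were known when they were chosen. Each locus had 1 probe, so the family was read from 8 of the 52901 probes of the array. All 8 share the role of ABA receptor, and no further role is given to single loci because the probe names carry the locus only.

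Roots were taken 25 days after sowing, and 23 samples were each hybridised to a 1-colour microarray. IR64-Tr-E2 is an IR64 line that overexpresses OsNAM12.1, a NAC transcription factor gene, and represents a single transgenic event. IR64-WT is its untransformed parent. NIL-481-B is a near isogenic line of Vandana that carries the drought yield locus qDTY12.1 from Way Rarem, and Vandana is its recipient parent. Drought plants went through a drydown that started from 75% of field capacity, whereas well-watered IR64 lines were held at 1.2 times field capacity and well-watered Vandana lines at field capacity, so the wet condition differed between the backgrounds. Of the 8 groups, 7 had 3 arrays, and the well-watered plants of IR64-Tr-E2 had 2, numbered 1 and 3. Whether plants were pooled was not given in the sources used here, and p-values measure the spread between these samples.

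The share of spots well above background ranged from 39.29% to 61.0% on drought arrays and from 31.64% to 64.18% on well-watered arrays, with 3 arrays under 40%. In IR64-Tr-E2 it was 50.21% to 57.24% under drought and 43.76% to 44.11% when well watered, with no overlap. In NIL-481-B it was 52.51% to 58.8% and 51.15% to 59.94%, and in IR64-WT and Vandana the ranges also overlapped. Across 318 probes that separated the backgrounds, the library labelled as replicate 2 of well-watered Vandana was closer to the IR64 lines on 99.1%, against 0% to 4.4% on the other Vandana and NIL-481-B arrays. These probes were chosen from all arrays but that library, so only its percentage is independent of the choice. This library was kept under its label, and values without it are given beside the main receptor tests that include it. The within-slide pairings, the correlations with the share of spots and the results for the other ABA genes include it. The summed root marker list (5 loci) was at 9.72 to 12.98 log2 units under drought and 12.30 to 14.15 when well watered, and the marker LOC_Os01g63510 was well above background on 2 of 23 arrays. The brightest root marker, LOC_Os02g44310, fell by 2.18 log2 units in the averaged drought effect, LOC_Os03g01700 and LOC_Os02g51110 rose by 1.27 and 0.75, and their part in the receptor values was not tested. The summed shoot marker list (6 Rubisco, Rubisco activase and chlorophyll-binding loci) ran from 6.85 to 15.74 under drought and from 8.25 to 14.06 when well watered. Arrays of 1 group also differed, at 7.42 to 14.79 in drought IR64-Tr-E2 and 6.85 to 15.06 in drought IR64-WT. In well-watered IR64-Tr-E2 the range was narrower, 8.86 to 9.53. No shoot marker passed the test for the averaged drought effect, but their SEs were 0.78 to 1.29 log2 units. An equal leaf signal in both treatments was therefore not shown, and the part of leaf material in the receptor values was not tested.

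Signals are given as log2 of the quantile-normalised spot signal. A gene is said to rise or fall when the Benjamini-Hochberg adjusted p from limma, over all probes, was below 0.05. In these bulk roots, fewer cells of a type and less RNA per cell cannot be told apart. Of the 8 receptor probes, 5 were well above background on every array, 2 on some arrays and LOC_Os01g61210 on none.

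Averaged over the 4 genotypes, 1 receptor rose under drought and 3 fell. LOC_Os05g12260 was 2.64-fold higher in drought roots, while LOC_Os03g18600, LOC_Os10g42280 and LOC_Os06g36670 were 2.68-fold, 2.11-fold and 1.63-fold lower. The remaining 4 did not pass the test. Over all probes 26.5% passed in this comparison, 14.2% higher and 12.3% lower, beside 4 of 8 receptors. The median difference of the 7 receptors above background on any array was -0.61 on the log2 scale. Over all 8 receptors it was -0.50, beside -0.06 over all probes. The latter were not filtered, and 29644 of 52901 were well above background on every array of some group. No receptor passed the stricter rule of the study's methods, more than 2-fold with a Bonferroni-adjusted p below 0.05, which 1.95% of all probes passed.

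**Figure D1:**
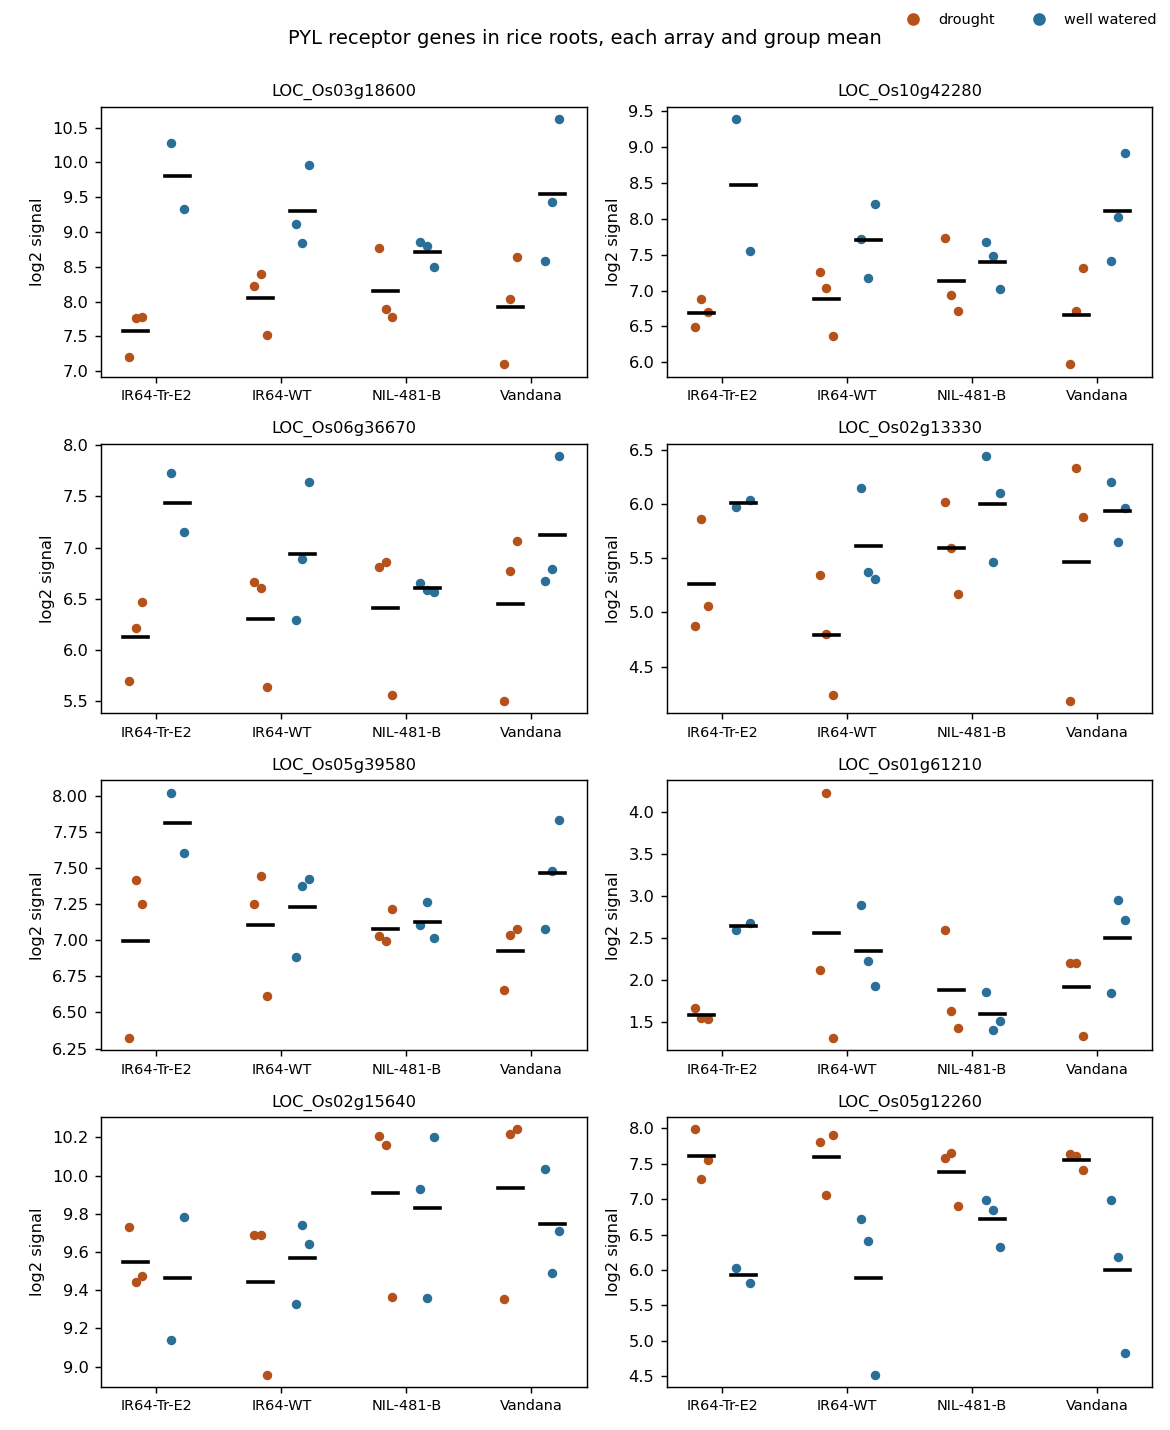
Log2 signal (y axis) of each receptor probe on every array (points) in the 4 genotypes (x axis), drought left of well watered, with the group mean as a line; each panel has its own scale. The group mean of LOC_Os05g12260 is higher under drought in each genotype and that of LOC_Os03g18600 lower. Single arrays of both overlap between treatments in NIL-481-B, as do those of LOC_Os03g18600 in Vandana. LOC_Os02g15640 stays between 8.96 and 10.24.

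LOC_Os03g18600 had the smallest adjusted p of the family. In IR64-Tr-E2 its log2 signal was 7.20, 7.76 and 7.78 on drought arrays, against 10.27 and 9.34 on well-watered arrays. In IR64-WT it was 8.22, 8.40 and 7.52 under drought, against 9.12, 8.85 and 9.96 when well watered. In both IR64 lines every drought array lay below every well-watered array. NIL-481-B had 8.76, 7.90 and 7.78 under drought and 8.86, 8.79 and 8.50 when well watered. Vandana had 7.10, 8.03 and 8.64 under drought and 8.59, 9.44 and 10.62 when well watered. In these Vandana lines the highest drought array overlapped the lowest well-watered array. Pooled over genotypes, 10 of 12 drought arrays were below all 11 well-watered arrays. The averaged difference was -1.42 ± 0.25 (SE; adjusted p = 0.00053), and without Vandana well-watered replicate 2 it was -1.43 (adjusted p = 0.00098). Its group means put the 4 well-watered groups above the 4 drought groups, from 9.81 ± 0.66 in IR64-Tr-E2 when well watered (SD, n = 2) to 7.58 ± 0.33 (SD, n = 3) in drought IR64-Tr-E2. Each group overlapped the next in that order, and only 2 of the 7 steps between neighbours exceeded the larger SD of the pair.

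LOC_Os05g12260 moved the other way. In IR64-Tr-E2 it was at 7.99, 7.29 and 7.55 under drought, against 6.04 and 5.82 when well watered. IR64-WT had 7.80, 7.07 and 7.91 under drought, against 6.72, 6.41 and 4.52 when well watered. Vandana had 7.64, 7.62 and 7.41 under drought and 6.99, 6.18 and 4.83 when well watered. The drought arrays of these 3 genotypes lay above all their well-watered arrays. For NIL-481-B the values were 7.59, 7.66 and 6.90 under drought and 6.99, 6.85 and 6.32 when well watered, and the ranges overlapped. Over all genotypes 11 of 12 drought arrays exceeded every well-watered array. The probe was well above background on 12 of 12 drought arrays and on 9 of 11 well-watered arrays, the exceptions being replicate 3 of IR64-WT and of Vandana. The averaged difference was 1.40 ± 0.27 (SE; adjusted p = 0.00099), and 1.43 without Vandana well-watered replicate 2 (adjusted p = 0.0016). The size depended on the processing: it was 0.85 with normexp background correction (adjusted p = 0.0002) and 1.07 with the array's share of spots well above background as a covariate (adjusted p = 0.00035). In the order of group means the 4 drought groups, at 7.38 to 7.61, stood above the 4 well-watered groups, at 5.89 to 6.72. The step between these sets, from drought NIL-481-B down to well-watered NIL-481-B, was the only one larger than the SDs beside it.

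LOC_Os10g42280 fell in the average by 1.08 ± 0.25 on the log2 scale (SE; adjusted p = 0.0039; 0.0060 without Vandana well-watered replicate 2). IR64-Tr-E2 had 6.49, 6.88 and 6.71 under drought and 9.39 and 7.55 when well watered. IR64-WT had 7.25, 7.03 and 6.37 under drought and 7.71, 7.17 and 8.21 when well watered. Drought and well-watered arrays were apart in the first of these lines and overlapped in the second. NIL-481-B had 7.74, 6.93 and 6.71 under drought and 7.67, 7.49 and 7.02 when well watered. Vandana had 5.97, 6.71 and 7.31 under drought and 7.41, 8.02 and 8.91 when well watered. The NIL-481-B ranges overlapped and the Vandana ranges did not. Well-watered IR64-Tr-E2 replicate 1 held the highest value of all arrays.

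LOC_Os06g36670 had the smallest change among the receptors that passed, -0.70 ± 0.24 (SE; adjusted p = 0.043, and 0.041 without Vandana well-watered replicate 2). With normexp background correction it was -0.44 and did not pass (adjusted p = 0.053). IR64-Tr-E2 had 5.70, 6.22 and 6.47 under drought, against 7.72 and 7.15 when well watered, with no overlap. The other 3 genotypes overlapped, at 5.50 to 7.06 under drought and 6.29 to 7.89 when well watered. Its call was lost when any of 12 of the 23 arrays was left out, with adjusted p-values of 0.053 to 0.11. These were replicates 1 and 2 of drought IR64-Tr-E2, replicate 1 of well-watered IR64-Tr-E2, replicate 3 of drought IR64-WT, replicates 2 and 3 of well-watered IR64-WT, replicate 3 of drought NIL-481-B, replicates 1, 2 and 3 of well-watered NIL-481-B, replicate 1 of drought Vandana and replicate 3 of well-watered Vandana. No such loss occurred for LOC_Os03g18600, LOC_Os05g12260 or LOC_Os10g42280 in the average.

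Of the receptors that did not pass, LOC_Os02g13330 and LOC_Os05g39580 lay close to the threshold. LOC_Os02g13330 ranged from 4.18 to 6.33 (median 5.26) under drought and from 5.31 to 6.44 (median 5.97) when well watered, a difference of -0.61 ± 0.24 (SE; adjusted p = 0.070), and -0.65 without Vandana well-watered replicate 2 (adjusted p = 0.068). LOC_Os05g39580 ranged from 6.32 to 7.45 (median 7.06) under drought and from 6.88 to 8.02 (median 7.37) when well watered, a difference of -0.38 ± 0.15 (SE; adjusted p = 0.070), and -0.38 without that array (adjusted p = 0.090). Their ranges overlapped broadly. Leaving out replicate 2 of drought IR64-Tr-E2 or of drought Vandana brought LOC_Os02g13330 past the threshold (adjusted p = 0.047 and 0.029). LOC_Os05g39580 passed without replicate 2 of drought IR64-WT, replicate 1 of well-watered IR64-WT, replicate 2 of drought IR64-Tr-E2 or replicate 1 of well-watered Vandana, with adjusted p-values of 0.041 to 0.048.

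LOC_Os02g15640 was the brightest receptor probe and was the least changed in the average, at 9.69 (median) under drought and 9.71 when well watered. Its averaged difference was 0.06, with a 95% interval of -0.29 to 0.40 (adjusted p = 0.83), so a change beyond 0.40 log2 units lay outside the interval. LOC_Os01g61210 stayed near background on all 23 arrays (well above it on 0), at 1.32 to 4.23 under drought and 1.41 to 2.96 when well watered, and no fold change is given for it.

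**Figure D2:**
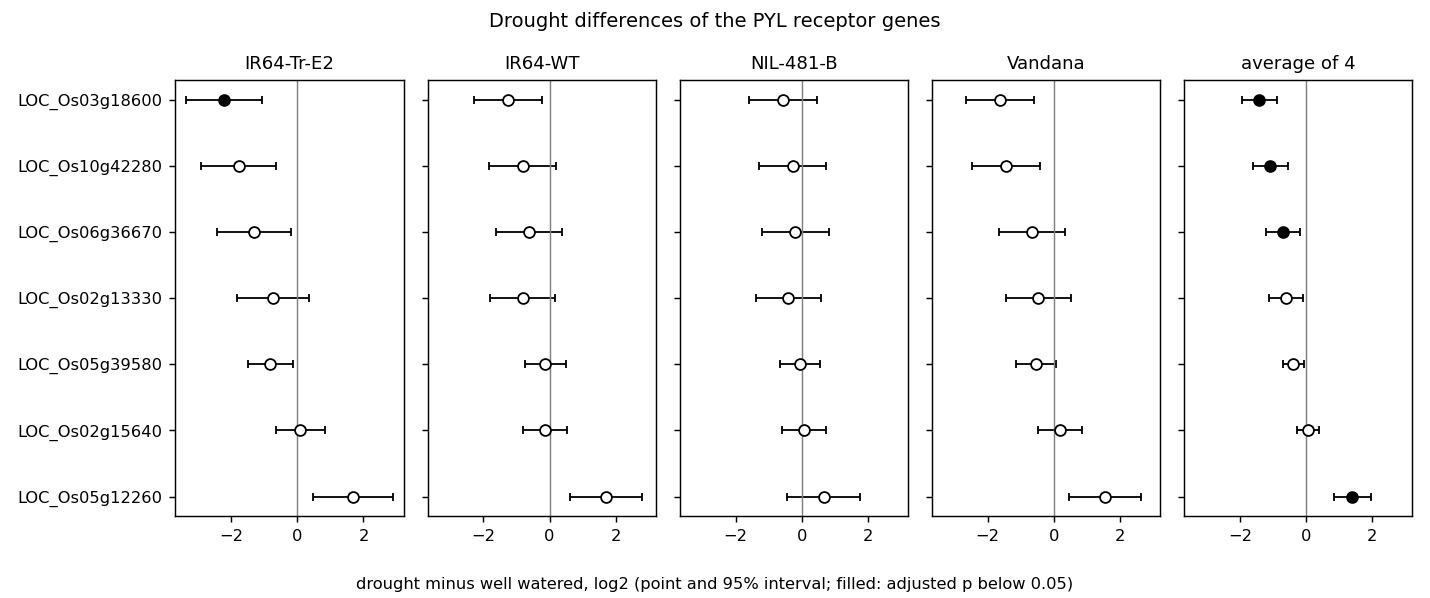
Drought minus well-watered difference on the log2 scale (x axis) of the 7 receptor probes above background on any array (rows) in each genotype and in the average of the 4; points are limma estimates, bars 95% intervals, and filled points passed the test. The average has 4 filled points and the single genotypes only LOC_Os03g18600 in IR64-Tr-E2.

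Within single genotypes, 1 receptor passed the test. In IR64-Tr-E2 LOC_Os03g18600 fell by 2.23 ± 0.54 on the log2 scale (SE; adjusted p = 0.021), 4.68-fold lower, in a comparison where 8.16% of all probes passed. This call was lost without replicate 1 (adjusted p = 0.081) or replicate 3 (0.051) of the drought arrays or replicate 1 of the well-watered arrays (0.25). LOC_Os10g42280, at -1.78 (adjusted p = 0.051), and LOC_Os05g12260, at 1.68 (adjusted p = 0.080), were the next closest. The LOC_Os10g42280 value rested on the well-watered arrays, at 9.39 and 7.55: it was -0.87 without replicate 1 (adjusted p = 0.57) and -2.69 without replicate 3 (adjusted p = 0.016). With the share of spots well above background as a covariate in limma, LOC_Os03g18600 was at -1.75 (adjusted p = 0.047) and LOC_Os05g12260 at 1.01 (adjusted p = 0.13). In this line every drought array had a higher share than both well-watered arrays, so drought and share cannot be told apart. The drought arrays of IR64-Tr-E2 did not overlap its well-watered arrays for 5 of the 7 receptors above background that were lower and 1 that was higher. Over all 8 receptors these counts were 6 and 1, where 26.2% and 21.6% of all probes, also unfiltered, did the same.

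In IR64-WT 0 of 8 receptors passed by limma (2 at an unadjusted p below 0.05), beside 4.99% of all probes. LOC_Os05g12260 was 1.71 higher (adjusted p = 0.070) and LOC_Os03g18600 was at -1.26 (adjusted p = 0.16). For each of these the arrays did not overlap, as for 10.4% of all probes in the higher and 8.45% in the lower direction. The call for LOC_Os05g12260 was gained without replicate 1 of well-watered IR64-WT or replicates 1 or 3 of well-watered Vandana, with adjusted p-values of 0.031 to 0.048.

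In Vandana 0 of 8 receptors passed by limma (3 at an unadjusted p below 0.05), beside 1.7% of all probes. LOC_Os03g18600 was at -1.63, LOC_Os10g42280 at -1.45 and LOC_Os05g12260 at 1.55, with adjusted p-values of 0.096, 0.13 and 0.13. All 3 passed without well-watered Vandana replicate 1 (-2.11, -1.80 and 2.05). That fit kept well-watered replicate 2, which was closer to the IR64 lines on 99.1% of 318 probes. It also kept replicate 3, where 31.64% of spots were well above background. Without the 3 arrays under 40% of such spots the values were -1.09, -1.06 and 0.98, and 0 receptors passed. Without Vandana well-watered replicate 2 the 3 values were -1.68, -1.50 and 1.65, and 0 receptors passed. The arrays did not overlap for 2 receptors that were lower and 1 that was higher, beside 9.41% and 9.33% of all probes.

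NIL-481-B had the narrowest range of receptor differences, between -0.57 and 0.66. None of the 8 passed by limma (0 at an unadjusted p below 0.05), beside 0.582% of all probes, and 0 receptors had arrays that did not overlap, beside 9.39% of all probes higher and 8.29% lower. LOC_Os03g18600 was at -0.57 and LOC_Os05g12260 at 0.66 in this line.

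Whether the drought response itself differed between genotypes was tested as a difference of differences, and 0 of 8 receptors passed in any of the 3 comparisons (0 at an unadjusted p below 0.05; limma). Of all probes, 0.0% passed for IR64-Tr-E2 minus IR64-WT, 0.00189% for NIL-481-B minus Vandana and 0.0246% for the IR64 lines minus the Vandana lines. For LOC_Os03g18600 the response of IR64-Tr-E2 minus that of IR64-WT was -0.97, with a 95% interval of -2.51 to 0.58. The response of NIL-481-B minus that of Vandana was 1.06 for the same gene, with an interval of -0.40 to 2.51. For LOC_Os05g12260 these differences were -0.02 (-1.67 to 1.62) and -0.89 (-2.44 to 0.66). Each of these 4 intervals held both 0 and a difference as large as the averaged response of the gene. The IR64 lines minus the Vandana lines gave -0.65 (-1.70 to 0.41) for LOC_Os03g18600 and 0.59 (-0.54 to 1.71) for LOC_Os05g12260. Without Vandana well-watered replicate 2 the NIL-481-B minus Vandana responses were 1.11 and -0.98 for these genes, the IR64 minus Vandana line responses were -0.62 and 0.54, and none passed.

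Receptor levels were also compared between genotypes within each treatment, and 0 of 8 passed in all 6 comparisons (0 at an unadjusted p below 0.05; limma). Over the 7 receptors above background on any array, IR64-Tr-E2 minus IR64-WT ranged from -0.47 to 0.47 under drought and from -0.11 to 0.77 when well watered, where 0.0% and 0.0113% of all probes passed. NIL-481-B minus Vandana ranged from -0.17 to 0.46 under drought and from -0.83 to 0.72 when well watered, beside 0.00567% and 0.00189% of all probes. The IR64 lines minus the Vandana lines ranged from -0.50 to 0.13 under drought and from -0.45 to 0.43 when well watered, beside 3.5% and 1.54%. Without Vandana well-watered replicate 2 the count of receptors that passed was also 0 in each of these comparisons.

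The arrays lay on 4 slides, each scanned in 1 session, and 9 pairings of drought and well-watered arrays of the same genotype shared a slide. Within slides LOC_Os05g12260 was higher under drought in 9 of 9, by 0.58 to 2.79 log2 units. LOC_Os03g18600 was lower in 9 of 9, by -3.08 to -0.10. The Vandana pairing on slide 2 used well-watered replicate 2, at 1.22 for LOC_Os05g12260 and -0.80 for LOC_Os03g18600. LOC_Os10g42280 was lower in 8 of 9, with the exception at 0.07 in NIL-481-B, and LOC_Os06g36670 was lower in 6 of 9. LOC_Os02g15640 was higher in 6 of 9 and lower in 3, between -0.84 and 0.80.

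The share of spots well above background moved with the signals of some receptors. The lowest LOC_Os05g12260 values, 4.52 and 4.83, and the highest LOC_Os03g18600 value, 10.62, were on well-watered replicate 3 of IR64-WT or Vandana, where the share was 35.29% and 31.64%. Deviations from group means correlated with those of this share at r = 0.83 for LOC_Os05g12260 and -0.63 for LOC_Os03g18600, over 23 arrays that also share slides and normalisation. For LOC_Os10g42280, LOC_Os06g36670 and LOC_Os05g39580 r was -0.48 to -0.50, and it was -0.11 for LOC_Os02g13330 and -0.08 for LOC_Os02g15640. Without the 3 arrays under 40%, the averaged differences were 1.16 for LOC_Os05g12260 (adjusted p = 0.00011), -1.25 for LOC_Os03g18600 (adjusted p = 0.0012) and -0.94 for LOC_Os10g42280 (adjusted p = 0.017). LOC_Os06g36670 was then at -0.57 and no longer passed (adjusted p = 0.11). In Vandana the same step took LOC_Os05g12260 to 0.98 and LOC_Os03g18600 to -1.09, both smaller than with all arrays.

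**Figure D3:**
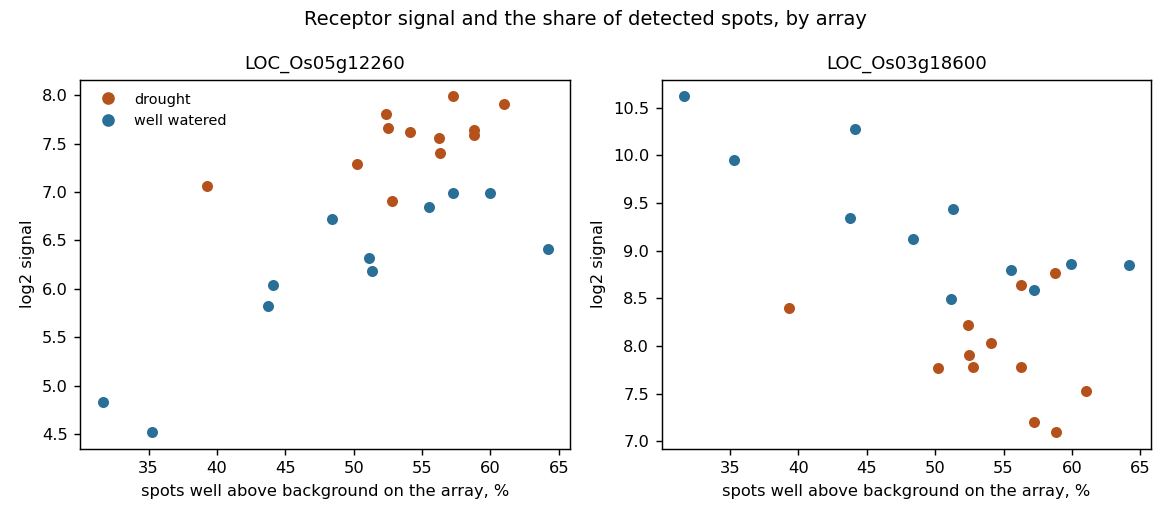
Log2 signal (y axis) of LOC_Os05g12260 and LOC_Os03g18600 against the percentage of spots well above background on the same array (x axis), 1 point per array coloured by treatment. The 2 well-watered arrays at 31.64% and 35.29% hold the 2 lowest LOC_Os05g12260 values.

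When arrays were instead aligned at their 75th percentile, the median difference of all probes moved to -0.62. On that scale LOC_Os05g12260 was at 1.38, LOC_Os03g18600 at -1.30 and LOC_Os06g36670 at -0.69. Relative to the median of all probes these were 2.00, -0.68 and -0.07, and LOC_Os10g42280 was at -0.38, so the fall of LOC_Os06g36670 was close to that of the median probe there. On the same basis LOC_Os02g13330 was at -0.15, LOC_Os05g39580 at 0.32 and LOC_Os02g15640 at 0.84.

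In the gap between LOC_Os05g12260 and LOC_Os03g18600 within an array, a scale factor common to all its probes cancels. A change that goes with the share of spots well above background does not, since their deviations correlated with it at r = 0.83 and -0.63. The well-watered gaps of -5.35, -4.82, -4.09 and -3.53 were on arrays with shares of 31.64%, 35.29%, 44.11% and 43.76%. The part of this share in the gap was not tested. This pair was chosen after its values were seen, so the gap is a description with no test. From signals before normalisation, the gap was -0.39 ± 0.71 log2 units on drought arrays (SD, n = 12) and -3.00 ± 1.30 on well-watered arrays (SD, n = 11). Drought arrays ran from -1.37 to 0.81 and well-watered arrays from -5.35 to -1.53, with no overlap over all 23 arrays. The lowest well-watered gaps were on the arrays where LOC_Os05g12260 was not well above background, and the other 9 well-watered arrays ran from -4.09 to -1.53. Quantile normalisation changed single gaps, with drought arrays then at -1.34 to 0.79 and well-watered arrays at -5.79 to -1.60. The drought minus well-watered change of the gap was 3.81 in IR64-Tr-E2, 2.71 in IR64-WT, 1.17 in NIL-481-B, with 3.01 for Vandana (3.10 without well-watered replicate 2). The size of the gap itself also reflects the brightness of the probes and is not a ratio of transcripts.

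**Figure D4:**
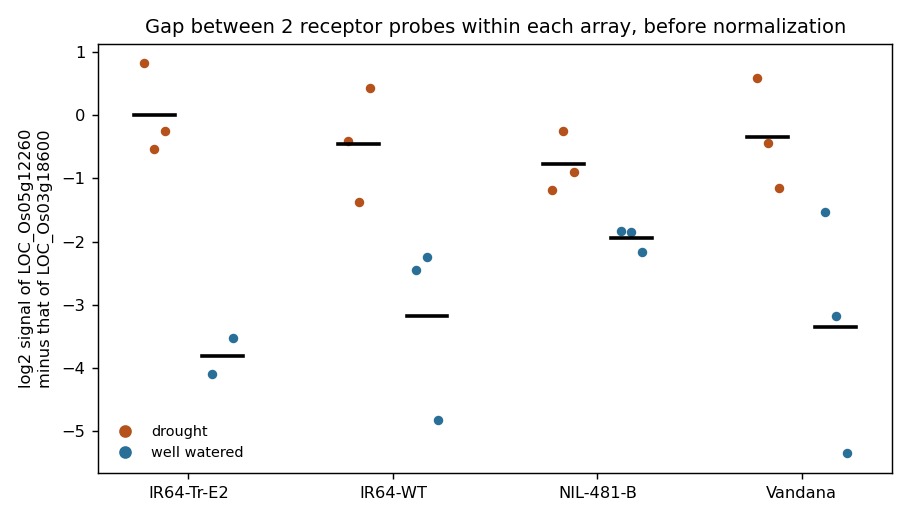
Log2 signal of LOC_Os05g12260 minus that of LOC_Os03g18600 on each array before normalisation (y axis, log2 units), by genotype (x axis) with drought left of well watered; lines are group means. Every drought array is at or above -1.37 and every well-watered array at or below -1.53.

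Across the 23 arrays the 3 receptors that fell varied together. LOC_Os03g18600 correlated with LOC_Os10g42280 at r = 0.95 and with LOC_Os06g36670 at 0.87. It also correlated with LOC_Os05g39580, which did not pass, at 0.77, and with LOC_Os05g12260 at -0.86. Without Vandana well-watered replicate 2 the 4 values were 0.95, 0.88, 0.76 and -0.85. Taken as deviations from the group means, the same correlations were 0.93, 0.84, 0.68 and -0.61, and the arrays share slides, treatments and normalisation. LOC_Os02g15640 correlated with LOC_Os03g18600 at r = 0.01 over arrays and 0.19 in the deviations. Its deviations correlated at 0.08 with LOC_Os10g42280 and 0.02 with LOC_Os05g39580, but at 0.54 with LOC_Os06g36670 and 0.62 with LOC_Os02g13330.

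Among 14587 other probes that were well above background on every array, those most like LOC_Os03g18600 over 23 arrays were LOC_Os04g01660 (r = 0.986), LOC_Os01g71170 (r = 0.986) and LOC_Os10g40584 (r = 0.985). Those most like LOC_Os02g15640 were LOC_Os10g32990 (r = 0.907), LOC_Os11g47900 (r = 0.901) and LOC_Os01g18744 (r = 0.852).

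The other ABA genes were read from lists of 39 loci, of which 38 had a probe. These lists were chosen with earlier results of these data known. In the averaged drought effect 23 of these rose, 1 fell and 14 did not pass, with a median difference of 0.70, beside 14.2% and 12.3% of all probes and a median of -0.06. The receptors, with 1 higher and 3 lower, had a median of -0.61 over the 7 above background in the same comparison, and -0.50 over all 8.

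Clade A PP2C phosphatases, the partners that receptors bind, had 6 of 9 measured genes higher and 0 lower (7 at an unadjusted p below 0.05), with a median of 1.31. LOC_Os05g49730, a probable protein phosphatase 2C, rose most, by 5.03 ± 0.42 log2 units (SE; adjusted p = 2.5e-07). Its signal ranged from 5.25 to 8.39 under drought and from 1.09 to 3.67 when well watered, where 3 of 11 arrays were well above background. With its signal on the other 8 raised, where lower, to the dimmest signal that its array still measured well above background, the gene was at least 14.5-fold higher. All 12 drought arrays exceeded every well-watered array.

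SnRK2 kinases, the family that includes targets of these phosphatases, had 6 of 10 higher and 0 lower (8 at an unadjusted p below 0.05 by limma), with a median of 0.62. LOC_Os03g41460 rose most, by 3.62 ± 0.27 (SE; adjusted p = 5.7e-08), at 5.63 to 8.02 under drought and 2.00 to 4.42 when well watered, where 6 of 11 arrays were well above background, and on the same basis at least 10.1-fold higher. The bZIP list, factors that the kinases phosphorylate, had 7 of 9 higher and 1 lower, with a median of 1.30. LOC_Os01g64730 rose most, by 3.77 ± 0.25 (SE; adjusted p = 1.7e-08), and LOC_Os07g48660 fell by 0.93 ± 0.30 (SE; adjusted p = 0.027).

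Of the ABA synthesis genes, 2 of 7 rose and 0 fell (3 at an unadjusted p below 0.05), with a median of 0.14, and LOC_Os12g42280 rose most, by 2.27 ± 0.23 (SE; adjusted p = 3.0e-06). Its well-watered signal was well above background on 2 of 11 arrays, and on that basis it was at least 3.66-fold higher. Of the breakdown genes 2 of 3 rose. LOC_Os09g28390, an ABA 8'-hydroxylase, rose by 3.36 ± 0.42 (SE; adjusted p = 2.3e-05), at 4.72 to 8.34 under drought and 2.38 to 4.88 when well watered, where 4 of 11 arrays were well above background, at least 9.70-fold higher.

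**Figure D5:**
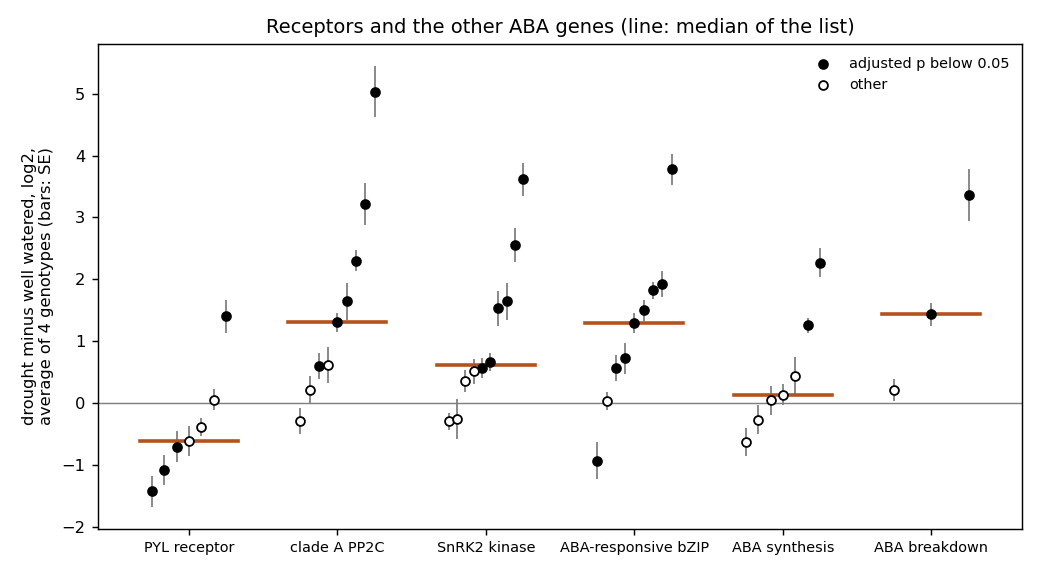
Drought minus well-watered difference averaged over 4 genotypes (y axis, log2) for each gene of the receptor list above background on any array and of the 5 other ABA lists (x axis); bars are SE, filled points passed the test and lines are list medians. The receptor median is -0.61, and the other medians run from 0.14 to 1.44.

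Within single genotypes the same 38 genes had 17 higher in IR64-Tr-E2, 16 in IR64-WT, 5 in NIL-481-B and 9 in Vandana, with 0 lower in each, where 5.19%, 3.16%, 0.374% and 1.2% of all probes were higher. The receptors in the same comparisons had 0 higher in each and 1 lower, in IR64-Tr-E2, where 2.97% of all probes were lower, beside 1.83% in IR64-WT, 0.208% in NIL-481-B and 0.499% in Vandana.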

How the data were processed

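RNA of 23 rice root samples was hybridised to 1-colour Agilent arrays, 1 sample per array. The authors deposited scanner files of spot intensity, background-subtracted by Feature Extraction (11.5.1.1 per the file headers, 11.0 per the submitters' processing notes), and a log2 table that the authors quantile normalised and centred on each probe's median. That table was used only as an alternative. It correlated with the values used here at 0.99998 and its scale and direction are those of log2 signal.

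Control spots and outlier spots (0 to 17 per array) were left out, and no spot was saturated. The log2 processed intensities of duplicate spots were averaged, and the probe values were then quantile normalised. A single limma (3.58.1, R 4.3.3) fit of 8 group means on all 23 arrays gave 14 comparisons, each over up to 52901 probes, with Benjamini-Hochberg adjustment. The fit was tested on simulated data whose noise was independent between probes, so variation shared by probes of an array was not covered. The number of arrays limits the precision. A probe was taken as well above background by the scanner's flag.

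Members and lists were chosen with earlier results of these data known. All members were named, with the largest rise and fall of each list among genes that passed, and the 3 probes most like the receptor of smallest adjusted p and the brightest receptor. Alternatives were the 75th percentile shift, normexp with offset 50, the filter on dim probes, slide and replicate blocks, the deposited table, the Bonferroni rule, fits of the compared arrays, and each array left out. After seeing the data, fits without the 3 arrays under 40% of spots well above background and with that share as a covariate were added, as were the lower bounds for pathway genes and the other settings of the receptor gap. Promoters, proteins and further receptor loci were not analysed here.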

Additional observations from a re-analysis of the deposited data

How the results depend on the processing

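Precision was limited by 2 or 3 arrays per group, and where an array of well-watered IR64-Tr-E2 was left out the lone array was assumed to vary like the other groups. The count of 4 receptors in the averaged drought effect was 3 to 5 with each array left out, 3 in both fits added after seeing the data, 6 after the 75th percentile shift, and 0 under the Bonferroni rule with 2-fold. That shift gave 6484 higher and 13183 lower probes in the average, against 7496 and 6501. Over all probes normexp gave 3043 higher and 1764 lower in IR64-Tr-E2, against 2745 and 1571. In IR64-Tr-E2 the receptor count of 1 became 3 with normexp, with the filter on dim probes and without the 3 arrays under 40%, 2 with the slide block and 0 under the Bonferroni rule. It was 0 to 3 with each array left out: 0 without drought replicates 1 or 3 or well-watered replicate 1, 2 or 3 without well-watered replicate 3, drought Vandana replicates 1 or 3, well-watered Vandana replicates 1 or 3, or well-watered IR64-WT replicate 3. Over all probes normexp gave 1905 higher and 905 lower in IR64-WT, against 1670 and 969. For the filter, the blocks, the added fits and the arrays left out, counts over all probes are not given here. Changes of the receptor counts in those fits therefore have no share of all probes beside them. In IR64-WT the receptor count of 0 became 1 with normexp, the filter, the slide block and both added fits, and 0 to 1 with each array left out. In Vandana it was 0 to 3, and in NIL-481-B 0 throughout. Receptor differences between genotypes numbered 0 in all 9 comparisons under every alternative run. The 23 ABA pathway genes that rose became 15 under the Bonferroni rule and 20 to 23 with each array left out, and the 1 that fell became 2 with the filter or the slide block, 0 under the Bonferroni rule and 0 to 2 with each array left out. The cause was not tested for any of these.

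Arrays of the same genotype and replicate number had deviations that correlated between -0.40 and 0.41 (11 pairs), so pairing was not established. Plants were sown in randomised blocks, and whether a replicate number stands for a block was not given in the sources used here. With the replicate block 5 receptors passed in the average, 2 in IR64-Tr-E2 and 1 in IR64-WT.

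Signs changed for small differences that did not pass, leaving aside LOC_Os01g61210, which was above background on 0 arrays. LOC_Os02g15640 in IR64-WT was -0.12, 0.10 after the percentile shift and -0.25 to 0.12 with each array left out. The IR64-Tr-E2 minus IR64-WT response of LOC_Os05g12260 was -0.02, 0.15 after the percentile shift, 0.038 with normexp, 0.40 without the 3 arrays and -0.44 to 0.66 with each array left out. With each array left out, LOC_Os02g15640 ran from -0.23 to 0.41 in IR64-Tr-E2, -0.16 to 0.35 in NIL-481-B and -0.022 to 0.14 in the average. LOC_Os05g39580 ran from -0.30 to 0.12 in IR64-WT and -0.12 to 0.022 in NIL-481-B, LOC_Os02g13330 from -0.91 to 0.17 in Vandana and LOC_Os06g36670 from -0.41 to 0.23 in NIL-481-B. The response of the IR64 lines minus the Vandana lines ran from -0.90 to 0.02 for LOC_Os10g42280.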
